A study of Mus musculus with 6 samples.

Results

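The mRNAs described here are 32 listed mouse genes of branched-chain amino acid, propionate and ketone breakdown, chosen as a pathway list and matched by gene symbol. This list and the other gene lists below were chosen with earlier results of these data known, so their shares are not independent of these data. Of these 32 genes, 30 have a row among the 13734 genes of the expression table, and Acad8 and Mmadhc are not analysed here. A minimum of 1 CPM (read counts scaled to a common library size) in at least 3 libraries left 29 of the 30 among 10054 tested genes, and Bdh1 stayed below it. The genes were measured by poly(A) RNA sequencing of white adipocytes differentiated from an immortalized subcutaneous preadipocyte line of the mouse, in which both Dicer1 alleles are floxed and Cre-ERT2 is expressed.

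In the 3 DICER_KO libraries (labelled DICERKO), the cells had received 10 µM 4-hydroxytamoxifen for 48 hours from day 6 of differentiation, which activates the Cre and deletes floxed Dicer1. In the 3 control libraries (labelled WT control), the same floxed cells had received ethanol vehicle, so they carry the Cre-ERT2 and the unrecombined alleles. Both groups then received 10 µM isoproterenol, a beta-adrenergic agonist, for 6 hours, and no unstimulated group is analysed here. All cells had been differentiated with insulin, rosiglitazone, T3, IBMX, dexamethasone and indomethacin. Because 4-hydroxytamoxifen was given to DICER_KO cells only, its own effect and that of the deletion cannot be told apart. All libraries come from a single immortalized line, and the labels call the replicates biological without saying whether they were separate cultures, so each p-value reflects only how far these 6 libraries vary, which may be technical.

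DICER is the ribonuclease that cuts microRNA precursors into mature microRNAs. Leucine, isoleucine and valine lose their amino group to a transaminase in the cytosol or the mitochondrion. The ketoacids that remain are committed to oxidation by the branched-chain ketoacid dehydrogenase, which a kinase switches off and a phosphatase switches on. The leucine branch ends in acetyl-CoA and acetoacetate, while valine and part of isoleucine give propionyl-CoA, which enters the citric acid cycle as succinyl-CoA through biotin- and cobalamin-dependent enzymes. Fat cells use this pathway for fuel and for lipid synthesis, and its genes are known to be induced as adipocytes mature.

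Reads on genes came to 13569034, 18443315 and 30268077 in DICER_KO replicates 1, 2 and 3 and to 17219155 to 17680469 in the controls. Dicer1 had 5.43, 5.47 and 5.49 log2 CPM in DICER_KO replicates 1, 2 and 3, against 6.14, 6.09 and 6.14 in control replicates 1, 2 and 3. It fell by 0.66 on the log2 scale (adjusted p = 0.0150, limma with Benjamini-Hochberg adjustment over all tested genes), and all DICER_KO libraries lay below all controls. The call was lost when any library other than DICER_KO replicate 3 was left out (limma adjusted p = 0.0568 to 0.147) and without the intensity trend (0.0635). The 12 mature adipocyte markers were all detected, with Adipoq at 8.71, 8.74 and 6.41 log2 CPM in DICER_KO replicates 1, 2 and 3, against 7.67, 7.55 and 7.62 in the controls. In DICER_KO replicates 1 and 2, 10 of the 12 were above all controls, against 36.8% and 36.2% of all genes. The other 2, Lpl and Cd36, were below the control mean in both, and Lpl was below all controls in all 3 DICER_KO libraries. Of 8 macrophage markers, Adgre1, Ptprc and Itgam are not in the table, Lyz2 and Mrc1 were below the minimum, and the 3 tested summed to 37.8, 38.7 and 38.0 CPM in DICER_KO, against 34.5, 37.0 and 32.2 CPM in controls. Among these 3, Cd68 had 4.51, 4.50 and 4.52 log2 CPM in DICER_KO, all above the controls with 4.05, 4.23 and 4.07, while Csf1r and Cd14 overlapped between the groups. Of 4 endothelial markers, Pecam1 and Cdh5 were below the minimum, and the 2 tested, Tek and Kdr, summed to 5.74, 7.83 and 7.37 CPM in DICER_KO, against 5.53, 4.68 and 5.30 CPM in controls. Tek had 2.48, 2.88 and 2.66 log2 CPM in DICER_KO, all above the controls with 2.10, 2.00 and 1.93, while Kdr overlapped. All 3 DICER_KO libraries were above all controls for 10.4% of all genes and below them for 9.81%. Cd68 and Tek did not pass with all libraries (limma adjusted p = 0.163 and 0.117) and passed without DICER_KO replicate 3 (0.0334 and 0.0194), as did Kdr, which was lower in DICER_KO (0.0130), and their part in the results below was not tested.

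DICER_KO replicate 3 stood apart from DICER_KO replicates 1 and 2, and each fitted difference below is given with and without it. It was singled out by its values in these same data. Fits without it rest on DICER_KO replicates 1 and 2 alone, and their p-values do not allow for that choice. For replicate 3, the chi-square of read counts per degree of freedom was 85.5 and 92.8 against DICER_KO replicates 1 and 2. Those differed from each other by 8.36 and the controls by 12.1 to 26.4, and no DICER_KO library was set against a control in this way. Over all genes replicate 3 was not the library furthest from the controls. It was above all controls for 28.8% of genes and below for 28.9%. Replicate 1 had 36.8% and 33.5%, and replicate 2 had 36.2% and 30.9%. Against 28.9% of all genes, all 12 adipocyte markers lay below all controls in replicate 3. Their median difference from the control mean was 0.59, 0.59 and -1.18 on the log2 scale in DICER_KO replicates 1, 2 and 3, and their summed level was 12517, 12352 and 3808 CPM in DICER_KO against 8825, 7676 and 9643 CPM in controls. The 10 tested preadipocyte and fibroblast markers had medians of -0.31, -0.23 and -0.48 in the same 3 DICER_KO libraries and summed levels of 8518, 9492 and 8822 CPM, against 13358, 15399 and 13252 CPM in controls. Of these 10, 9 lay below all controls in replicate 3, against the same 28.9% of all genes. The other, Dlk1, lay above them, with 6.44 log2 CPM against 5.65, 5.83 and 5.25. Col1a1, Col1a2, Col3a1, Dcn and Fn1 had the highest levels of the 10 and weigh most in the sums. Col3a1 passed with all libraries (difference -1.44, limma adjusted p = 0.00856), while Pdgfra, Pdgfrb and Cd34 differed by -0.06, 0.02 and -0.04. Lum and Dpp4 were below the minimum, and Pi16 is not in the table. The part of adipocyte content in the results below was not tested, and in bulk RNA fewer adipocytes and less RNA per adipocyte cannot be told apart.

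With all 6 libraries, 0 of the 29 tested members passed the threshold (an adjusted p of 0.05 in limma) in either direction, against 0.149% of all tested genes higher and 0.288% lower in DICER_KO (0.438% either way). At an unadjusted p under 0.05 in the same limma fit, 6 members stood out (Slc25a44, Bcat2, Bcat1, Acadsb, Hibch and Oxct1), which is 20.7% of members against 15.8% of all genes. Limma-voom on the recovered reads also called 0 members. Without DICER_KO replicate 3, 19 of 29 members rose (65.5%, against 12.5% of all genes) and 1 fell (Bcat1; 3.45%, against 7.22% of all genes), so that 20 members passed either way (69.0%, against 19.7%). The median member difference was 0.23 with all libraries and 0.46 without replicate 3, and the median of all tested genes was 0.02 in both fits. An alternative that weights libraries by their variability gave DICER_KO replicates 1, 2 and 3 weights of 1.08, 1.92 and 0.203 and control replicates 1, 2 and 3 weights of 7.54, 0.638 and 0.494, so that control replicate 1 weighed most. It gave 21 members higher and 1 lower, against 25.3% and 19.3% of all genes.

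The libraries themselves show the split. Summed over the tested members, the level was 1754, 1668 and 1031 CPM in DICER_KO replicates 1, 2 and 3, against 1186, 1160 and 1183 CPM in the controls. DICER_KO replicates 1 and 2 were both higher than every control for 22 members (75.9%, against 28.2% of all genes) and both lower for 1, Bcat1 (against 23.5% of all genes). Replicate 3 was lower than every control for 21 members (72.4%, against 28.9%). Taken singly, replicate 1 was above every control for 24 members (36.8% of all genes) and below for 2, Bcat1 and Mmab (33.5% of all genes), and replicate 2 was above for 23 (36.2% of all genes) and below for 1 (30.9% of all genes). For 17 members replicates 1 and 2 were above and replicate 3 below all controls, which is 58.6% of members and 8.48% of all genes. The reverse arrangement was seen in 0 members and in 4.76% of all genes. Only 1 member, Slc25a44, was above all controls in all 3 DICER_KO libraries, and 0 were below them in all 3, against 10.4% and 9.81% of all genes.

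**Figure D1:**
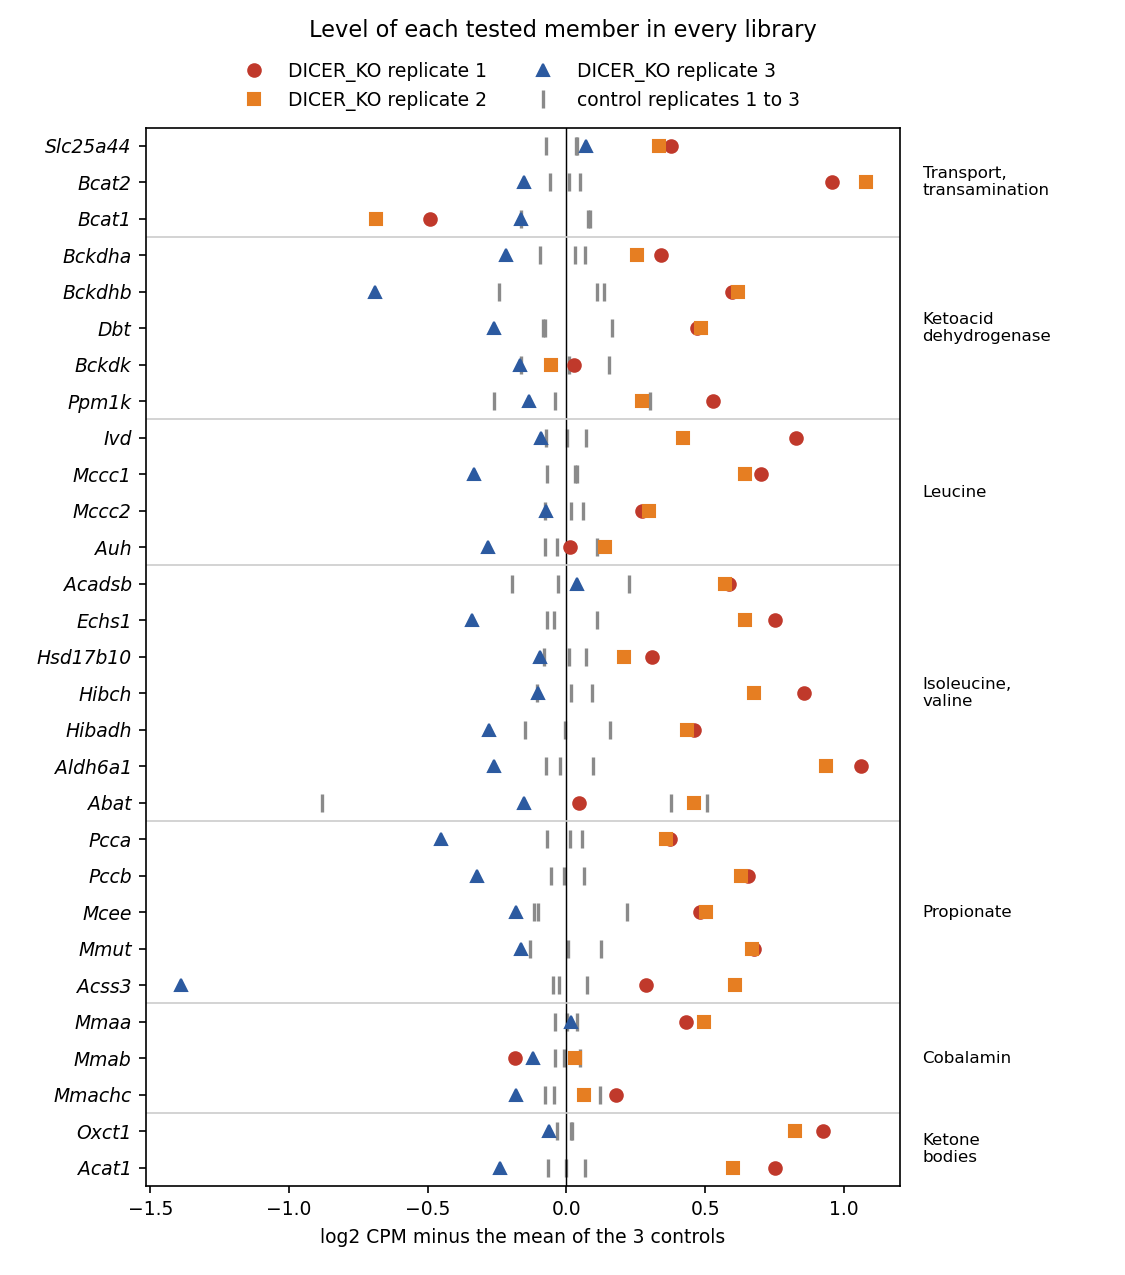
Level of each tested member in each library, as log2 CPM minus the mean of the 3 controls, with DICER_KO libraries and controls as separate symbols and members grouped by role. DICER_KO replicates 1 and 2 lie to the right of every control for 22 of 29 members, and DICER_KO replicate 3 lies to the left of every control for 21.

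The entry into the pathway held the only member whose groups did not overlap, and a pair of transaminases that went in opposite directions without replicate 3. Slc25a44 (chromosome 3, 88410494 to 88425141, GRCm38.p6 as for all gene positions), the mitochondrial carrier of branched-chain amino acids, had 6.24, 6.19 and 5.93 log2 CPM in DICER_KO replicates 1, 2 and 3, against 5.89, 5.90 and 5.79 in control replicates 1, 2 and 3. The groups did not overlap, as for 10.4% of all genes in this direction, and DICER_KO replicate 3 exceeded the highest control by little. The difference was 0.26 ± 0.11 (SE; adjusted p = 0.299) with all libraries, which missed the threshold, and Slc25a44 rose by 0.36 ± 0.10 (SE; adjusted p = 0.0195) without replicate 3.

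Bcat2 (chromosome 7, 45568967 to 45589710), the mitochondrial transaminase, had 6.55, 6.67 and 5.44 log2 CPM in DICER_KO replicates 1, 2 and 3, against 5.60, 5.64 and 5.53 in control replicates 1, 2 and 3. DICER_KO replicates 1 and 2 lay far above the controls and replicate 3 just below them. The difference was 0.63 ± 0.26 (SE; adjusted p = 0.289) with all libraries, and without replicate 3 Bcat2 rose 2.03-fold, by 1.02 ± 0.10 (SE; adjusted p = 5.69e-06). Bcat1 (chromosome 6, 144993835 to 145076157), the cytosolic transaminase, ran the other way with 5.18, 4.99 and 5.51 log2 CPM in DICER_KO replicates 1, 2 and 3, against 5.76, 5.75 and 5.51 in control replicates 1, 2 and 3. Replicates 1 and 2 lay below all controls, and replicate 3 stood at the level of control replicate 3. The difference was -0.45 ± 0.14 (SE; adjusted p = 0.205) with all libraries, and without replicate 3 Bcat1 fell to 0.665 of the control level, a log2 difference of -0.59 ± 0.12 (SE; adjusted p = 0.00228).

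Within each library the log2 ratio of Bcat2 to Bcat1, taken per kilobase of exon, was 3.11, 3.43 and 1.67 in DICER_KO replicates 1, 2 and 3, against 1.59, 1.64 and 1.77 in the controls. Per kilobase, Bcat2 thus stood above Bcat1 in every library, and by the widest margin in DICER_KO replicates 1 and 2. In plain CPM the log2 ratio was 1.36, 1.68 and -0.07 in DICER_KO replicates 1, 2 and 3. In control replicates 1, 2 and 3 it was -0.16, -0.11 and 0.02. The order of the genes in DICER_KO replicate 3 and control replicates 1 and 2 thus depends on the annotated exon lengths used. Reads were not stated to be counted by strand, and 20.4% of Bcat2 exon bases also lie in an antisense gene, 0610005C13Rik, so reads of this pair cannot be told apart there. For Bcat1 this share was 2.99%.

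The promoters of both transaminases are printed because these genes moved in opposite directions without replicate 3, together with that of Aldh6a1, which moved with Bcat2 (RefSeq, GRCm38.p6, 250 bases before to 50 after the start used in its promoter table, 5′ to 3′ on the gene's strand). Capitals mark matches to CCAAT or its reverse complement ATTGG and to TATAAA.
Bcat2 promoter, chr7:45569903-45570202, plus strand: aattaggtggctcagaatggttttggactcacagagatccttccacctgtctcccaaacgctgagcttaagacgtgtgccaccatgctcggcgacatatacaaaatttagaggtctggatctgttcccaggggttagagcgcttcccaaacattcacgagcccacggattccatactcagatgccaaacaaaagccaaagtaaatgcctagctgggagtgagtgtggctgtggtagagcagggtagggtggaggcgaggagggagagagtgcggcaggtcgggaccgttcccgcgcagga
Bcat1 promoter, chr6:145076108-145076407, minus strand: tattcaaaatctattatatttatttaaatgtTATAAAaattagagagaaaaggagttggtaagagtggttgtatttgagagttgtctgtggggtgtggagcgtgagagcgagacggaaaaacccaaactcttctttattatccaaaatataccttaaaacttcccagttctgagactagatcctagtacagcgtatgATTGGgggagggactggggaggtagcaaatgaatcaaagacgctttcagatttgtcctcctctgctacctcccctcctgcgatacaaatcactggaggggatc
Aldh6a1 promoter, chr12:84450975-84451274, minus strand: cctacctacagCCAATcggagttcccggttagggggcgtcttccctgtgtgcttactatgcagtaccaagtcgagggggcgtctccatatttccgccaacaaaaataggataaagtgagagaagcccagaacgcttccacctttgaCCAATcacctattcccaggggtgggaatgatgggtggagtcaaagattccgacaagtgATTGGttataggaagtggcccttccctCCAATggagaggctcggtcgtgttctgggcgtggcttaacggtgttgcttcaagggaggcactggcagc
The Bcat2 window held none of the searched motifs and lies inside the annotated extent of the gene, which starts further upstream. The Bcat1 window held a TATAAA and a CCAAT box on the reverse strand, and the Aldh6a1 window held 4 CCAAT boxes.

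Promoters were found for 25 of the 32 listed genes. CCAAT, on either strand, was in 14 of the 25 (38.0% of all 27025 promoters in that table), GGGCGGGG, the box bound by SP and KLF factors, in 12 (17.8% of all, and 2696 of the 7932 promoters of tested genes), and AGGTCA, the core that nuclear receptors recognise, in 5 (16.0% of all). Among tested genes, CCAAT was in 39.1% and AGGTCA in 12.3% of promoters. TATAAA was in 2 (Bcat1 and Bckdk; 14.2% of all and 7.21% of tested genes). CCGGAAG, an ETS factor motif, was in 1 (Auh; 9.14% of all and 17.4% of tested genes), and TGACGT, the core of the cyclic AMP response element, in 1 (Ppm1k; 7.59% of all and 11.7% of tested genes). The longer TGACGTCA, which contains TGACGT, was in 0 (3.19% of tested genes), as was TCAAGGTCA, which contains AGGTCA (0.277%). The longer motifs of NRF1 (1.98% of tested genes) and YY1 (1.48%) and the PPAR direct repeat (0.0504%) were also in 0. With shares this low, 0 of 25 promoters does not set the members apart. These are letter matches only.

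At the committed step, the 3 catalytic genes rose without replicate 3 while the kinase gene did not pass. Bckdha, which encodes the alpha subunit of the decarboxylase, had 6.59, 6.51 and 6.03 log2 CPM in DICER_KO replicates 1, 2 and 3, against 6.28, 6.32 and 6.15 in control replicates 1, 2 and 3. Bckdhb, its beta subunit, had 5.23, 5.25 and 3.95 log2 CPM in the DICER_KO libraries, against 4.77, 4.39 and 4.75 in the controls. Dbt, the lipoate-bearing transacylase at the core of the complex, had 5.29, 5.31 and 4.56 log2 CPM in the DICER_KO libraries, against 4.74, 4.75 and 4.99 in the controls. For all 3 genes DICER_KO replicates 1 and 2 were above and replicate 3 below every control. With all libraries the differences were 0.13 (adjusted p = 0.660), 0.17 (adjusted p = 0.774) and 0.23 (adjusted p = 0.527). Without replicate 3, Bckdha rose by 0.30 (adjusted p = 0.0456), Bckdhb by 0.61 (adjusted p = 0.00359) and Dbt by 0.48 (adjusted p = 0.00866). Of the Bckdha exon bases, 61.7% lie in B3gnt8 on the opposite strand, where reads of both genes cannot be told apart.

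Bckdk, the kinase that inactivates the complex, had 6.20, 6.12 and 6.01 log2 CPM in DICER_KO replicates 1, 2 and 3, against 6.18, 6.33 and 6.01 in control replicates 1, 2 and 3. The groups overlapped, and the difference was -0.07 ± 0.11 (SE; adjusted p = 0.782), with a 95% interval of -0.32 to 0.19, and -0.01 (adjusted p = 0.936) without replicate 3, with an interval of -0.25 to 0.22. Within libraries the log2 ratio of Bckdk to Bckdha CPM was -0.39, -0.39 and -0.02 in DICER_KO replicates 1, 2 and 3, against -0.10, 0.01 and -0.14 in the controls. This ratio overlapped between the groups, and whether Bckdk differed from the catalytic genes was not tested. Ppm1k, the phosphatase that reactivates the complex, had 3.20, 2.94 and 2.54 log2 CPM in the DICER_KO libraries, against 2.63, 2.41 and 2.97 in the controls, and differed by 0.22 (adjusted p = 0.582) with all libraries and 0.40 (adjusted p = 0.132) without replicate 3. Its groups overlapped.

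In the leucine branch 2 of 4 genes, Ivd and Mccc1, rose without replicate 3. Ivd, isovaleryl-CoA dehydrogenase, had 5.45, 5.04 and 4.53 log2 CPM in DICER_KO replicates 1, 2 and 3, against 4.62, 4.69 and 4.55 in control replicates 1, 2 and 3. Mccc1, the biotin-carrying subunit of methylcrotonyl-CoA carboxylase, had 4.94, 4.89 and 3.91 log2 CPM in the DICER_KO libraries, against 4.27, 4.17 and 4.28 in the controls. Its partner Mccc2 had 3.92, 3.94 and 3.57 log2 CPM in the DICER_KO libraries, against 3.70, 3.57 and 3.66 in the controls. DICER_KO replicates 1 and 2 were above all controls for all 3 genes. Without replicate 3, Ivd rose by 0.63 (adjusted p = 0.00306) and Mccc1 by 0.67 (adjusted p = 0.000795), while Mccc2 differed by 0.29 (adjusted p = 0.125) and missed the threshold. With all libraries the differences were 0.39 (adjusted p = 0.355), 0.34 (adjusted p = 0.465) and 0.17 (adjusted p = 0.543). Auh, the hydratase of methylglutaconyl-CoA, had 4.78, 4.90 and 4.48 log2 CPM in the DICER_KO libraries, against 4.69, 4.73 and 4.87 in the controls, with overlapping groups and differences of -0.04 (adjusted p = 0.881) and, without replicate 3, 0.08 (adjusted p = 0.649). Of the Mccc1 exon bases, 12.6% are shared with genes on the opposite strand.

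The isoleucine and valine branches held the second-steepest change of the list without replicate 3. Aldh6a1 (chromosome 12, 84430717 to 84451024), which turns methylmalonate semialdehyde into propionyl-CoA, had 7.38, 7.25 and 6.06 log2 CPM in DICER_KO replicates 1, 2 and 3, against 6.24, 6.30 and 6.42 in control replicates 1, 2 and 3. Replicates 1 and 2 were above and replicate 3 below every control. The difference was 0.58 ± 0.28 (SE; adjusted p = 0.335) with all libraries and 1.00 ± 0.10 (SE; adjusted p = 6.58e-06) without replicate 3, a 2.00-fold rise. In this gene 9.89% of exon bases overlap Bbof1 on the opposite strand.

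Hibch, which removes CoA from hydroxyisobutyryl-CoA in valine breakdown, had 5.14, 4.96 and 4.19 log2 CPM in DICER_KO replicates 1, 2 and 3, against 4.31, 4.18 and 4.38 in control replicates 1, 2 and 3. Replicate 3 of DICER_KO lay just above the lowest control. The difference was 0.48 (adjusted p = 0.310) with all libraries, and Hibch rose by 0.77 (adjusted p = 0.000404) without replicate 3. Echs1, the short-chain enoyl-CoA hydratase, had 7.16, 7.04 and 6.06 log2 CPM in the DICER_KO libraries, against 6.51, 6.36 and 6.33 in the controls, and rose by 0.70 (adjusted p = 0.000202) without replicate 3. Hibadh, the dehydrogenase after Hibch, had 6.25, 6.23 and 5.52 log2 CPM in the DICER_KO libraries, against 5.79, 5.65 and 5.95 in the controls, and rose by 0.45 (adjusted p = 0.00943). Acadsb, the acyl-CoA dehydrogenase of isoleucine, had 5.39, 5.37 and 4.84 log2 CPM in the DICER_KO libraries, against 4.77, 4.61 and 5.03 in the controls, and rose by 0.58 (adjusted p = 0.00453). With all libraries these 3 genes differed by 0.35 (adjusted p = 0.454), 0.20 (adjusted p = 0.563) and 0.40 (adjusted p = 0.292).

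Hsd17b10, which oxidises methylhydroxybutyryl-CoA, had 6.53, 6.43 and 6.13 log2 CPM in the DICER_KO libraries, against 6.23, 6.30 and 6.14 in the controls. It differed by 0.14 (adjusted p = 0.548) with all libraries and 0.26 (adjusted p = 0.0784) without replicate 3, and did not pass either way. Abat, a transaminase of GABA that also acts in valine breakdown, was the member just inside the minimum of 1 CPM, with 15, 28 and 32 reads in DICER_KO and 28, 10 and 25 in controls. Its groups overlapped, with differences of 0.12 (adjusted p = 0.895) and, without replicate 3, 0.25 (adjusted p = 0.691).

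Propionate handling followed the same arrangement in all 5 members. Pccb, the beta subunit of propionyl-CoA carboxylase, had 5.90, 5.87 and 4.92 log2 CPM in DICER_KO replicates 1, 2 and 3, against 5.23, 5.19 and 5.31 in control replicates 1, 2 and 3. Pcca, its biotin-carrying partner, had 4.44, 4.43 and 3.62 log2 CPM in the DICER_KO libraries, against 4.13, 4.08 and 4.00 in the controls. Mmut, the cobalamin-dependent methylmalonyl-CoA mutase, had 6.03, 6.03 and 5.19 log2 CPM in the DICER_KO libraries, against 5.36, 5.23 and 5.48 in the controls. In each of these genes DICER_KO replicates 1 and 2 were above and replicate 3 below all controls. Without replicate 3, Pccb rose by 0.64 (adjusted p = 0.000472), Mmut by 0.67 (adjusted p = 0.000495) and Pcca by 0.36 (adjusted p = 0.0414). With all libraries the differences were 0.32 (adjusted p = 0.462), 0.39 (adjusted p = 0.360) and 0.09 (adjusted p = 0.830).

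Mcee, the epimerase between the carboxylase and the mutase, had 3.13, 3.16 and 2.47 log2 CPM in the DICER_KO libraries, against 2.55, 2.54 and 2.87 in the controls, and rose by 0.49 (adjusted p = 0.0448) without replicate 3, against 0.27 (adjusted p = 0.510) with all libraries. Acss3, which activates propionate to propionyl-CoA, had 1.58, 1.90 and -0.10 log2 CPM in the DICER_KO libraries, against 1.36, 1.27 and 1.24 in the controls. Its differences were -0.17 (adjusted p = 0.857) with all libraries and 0.45 (adjusted p = 0.163) without replicate 3, and 42.3% of its exon bases overlap Ppfia2 on the opposite strand. The sign of the Acss3 difference turned with that library.

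Of the 3 cobalamin genes, 1 rose without replicate 3. Mmaa, the G protein that protects and loads the mutase, had 3.59, 3.66 and 3.18 log2 CPM in DICER_KO replicates 1, 2 and 3, against 3.12, 3.20 and 3.16 in control replicates 1, 2 and 3. Replicate 3 lay within the range of the controls. Mmaa differed by 0.31 (adjusted p = 0.350) with all libraries and rose by 0.46 (adjusted p = 0.0268) without replicate 3. Mmab, the adenosyltransferase that makes adenosylcobalamin, had 4.46, 4.67 and 4.52 log2 CPM in the DICER_KO libraries, against 4.69, 4.63 and 4.60 in the controls, and differed by -0.09 (adjusted p = 0.685), or -0.08 (adjusted p = 0.652) without replicate 3. Mmachc, which trims incoming cobalamin, had 3.94, 3.83 and 3.58 log2 CPM in the DICER_KO libraries, against 3.69, 3.72 and 3.89 in the controls, and differed by 0.02 (adjusted p = 0.952), or 0.12 (adjusted p = 0.522). Neither passed in either fit, and their groups overlapped.

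Ketone body use held the largest rise after Bcat2 and Aldh6a1 without replicate 3. Oxct1 (chromosome 15, 4026428 to 4155344), the CoA transferase that activates acetoacetate, had 7.66, 7.56 and 6.67 log2 CPM in DICER_KO replicates 1, 2 and 3, against 6.76, 6.70 and 6.75 in control replicates 1, 2 and 3. Replicates 1 and 2 were above the controls, which lay close together, and replicate 3 was just below them. The difference was 0.56 ± 0.21 (SE; adjusted p = 0.264) with all libraries, and without replicate 3 Oxct1 rose 1.83-fold, by 0.87 ± 0.09 (SE; adjusted p = 1.42e-05). In this gene 13.2% of exon bases are shared with BC037032 on the opposite strand.

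Acat1, the mitochondrial thiolase that splits acetoacetyl-CoA and closes isoleucine breakdown, had 7.71, 7.56 and 6.72 log2 CPM in the DICER_KO libraries, against 6.95, 6.89 and 7.02 in the controls. It differed by 0.37 (adjusted p = 0.395) with all libraries and rose by 0.68 (adjusted p = 0.000216) without replicate 3. The log2 ratio of Oxct1 to Acat1 CPM was -0.05, 0.01 and -0.04 in the DICER_KO libraries, against -0.20, -0.19 and -0.27 in the controls. Of 12 ratios between members, chosen with their values known, the groups did not overlap in this one and in Oxct1 over Bdh1. Among single genes, 10.4% of all genes did not overlap upward in DICER_KO and 9.81% downward. No ratio was tested. Bdh1, which interconverts acetoacetate and hydroxybutyrate, had 1, 3 and 1 reads in DICER_KO and 5, 2 and 2 reads in controls, which is too few to compare.

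**Figure D2:**
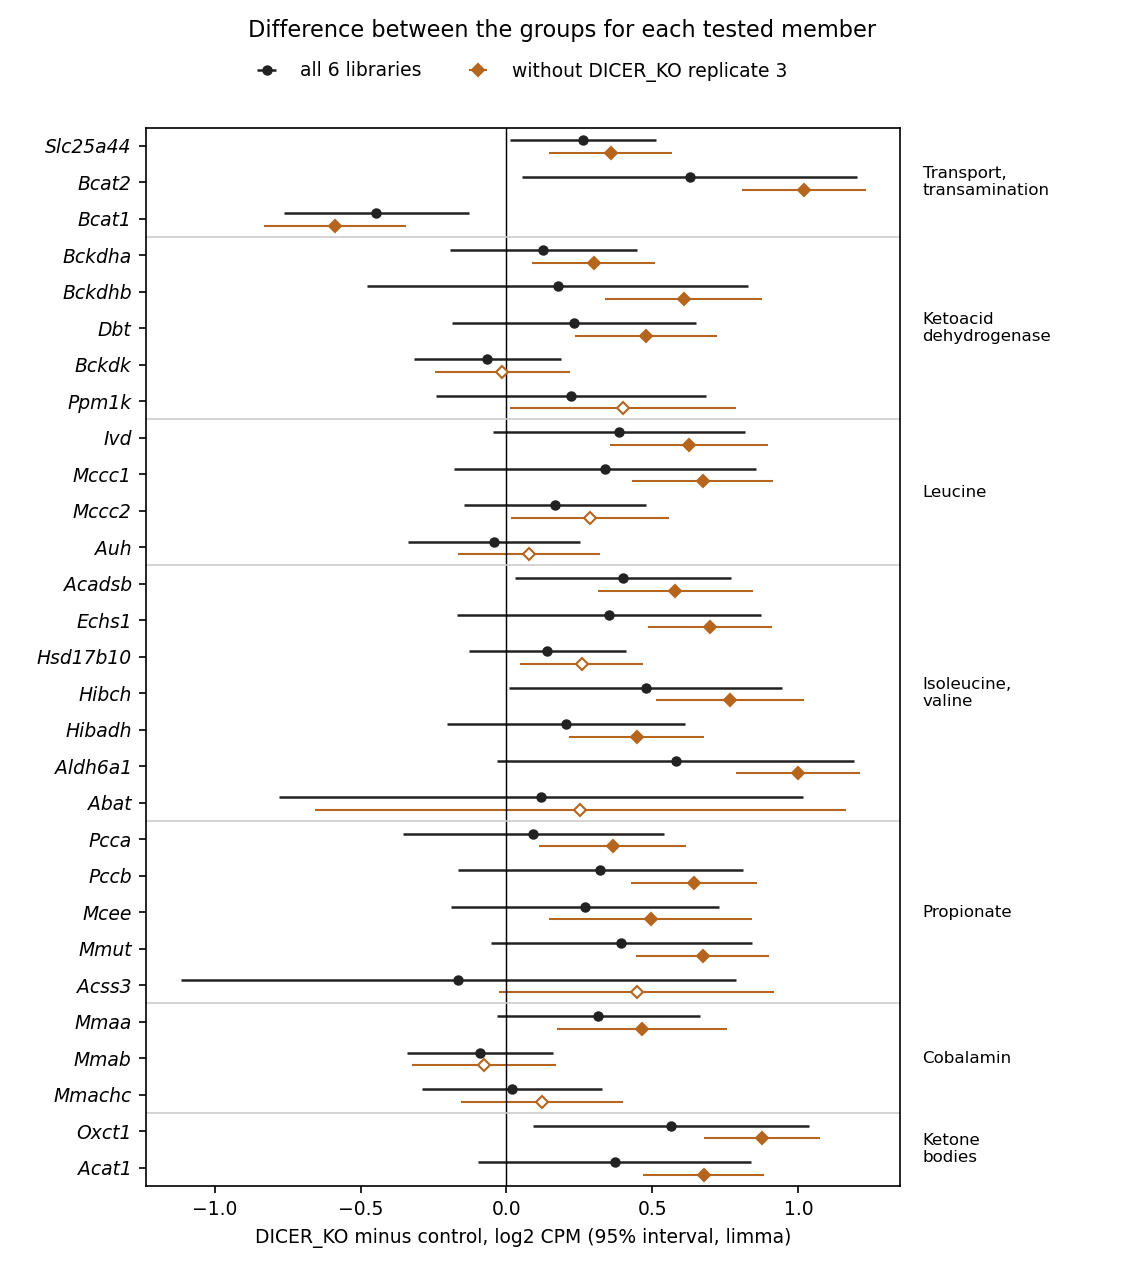
Fitted log2 difference of each tested member, DICER_KO minus control, with 95% intervals, for all 6 libraries and without DICER_KO replicate 3. Filled diamonds mark the 20 members past the threshold without replicate 3, open diamonds the others, and 0 members passed with all 6 libraries.

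Medians by role had positive values in DICER_KO replicates 1 and 2 and negative ones in replicate 3, with the cobalamin genes nearest to 0. The median difference from the control mean was 0.84, 0.71 and -0.15 for Oxct1 and Acat1 in DICER_KO replicates 1, 2 and 3. For the 7 isoleucine and valine genes it was 0.59, 0.57 and -0.15, and for the 5 propionate genes 0.48, 0.61 and -0.32. The leucine genes had 0.49, 0.36 and -0.19, the dehydrogenase group 0.47, 0.27 and -0.22, and the transport and transamination genes 0.38, 0.33 and -0.15. The 3 cobalamin genes stood lowest in replicates 1 and 2, with 0.18, 0.06 and -0.12. Their value in DICER_KO replicate 2 was about the size of the -0.06 of control replicate 1 against the other controls, and in this group Mmab was below all controls in replicate 1. Over all 29 members the median was 0.47, 0.48 and -0.17 in the 3 DICER_KO libraries, while for each control against the other controls it was 0.01, -0.06 and 0.06.

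**Figure D3:**
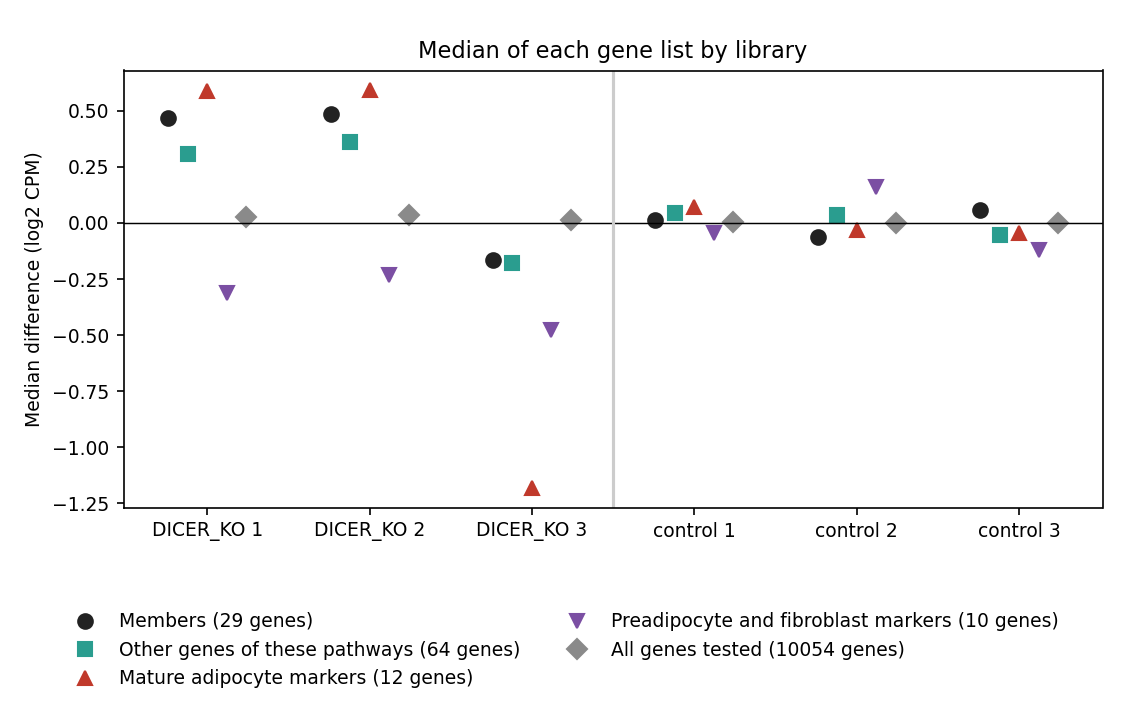
Median log2 CPM difference per library for the 29 members, the 64 other genes of these and adjoining pathways, the mature adipocyte markers, the preadipocyte and fibroblast markers and all tested genes, with DICER_KO libraries set against the control mean and each control against the mean of the other controls. In DICER_KO replicates 1 and 2 the member median was 0.47 and 0.48, and in replicate 3 it was -0.17.

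Levels per kilobase of exon spread widely among members. In CPM per kilobase, Hsd17b10 was highest with 93.4, 87.0 and 70.5 in DICER_KO and 75.8, 79.2 and 71.2 in controls. Echs1 followed with 91.6, 84.8 and 42.9 in DICER_KO and 58.7, 52.7 and 51.8 in controls. Acat1 had 49.2 ± 16.1 in DICER_KO and 36.5 ± 1.68 in controls, and Oxct1 46.6 ± 15.4 and 30.2 ± 0.636 (SD, n = 3 each). Acat1 and Bckdha, with 44.4 ± 8.71 in DICER_KO and 40.1 ± 2.33 in controls (SD, n = 3 each), are neighbours in this order and overlapped in both groups. Ppm1k had 1.36 ± 0.305 in DICER_KO and 1.16 ± 0.230 in controls (SD, n = 3 each), so the phosphatase message stood far below that of the kinase, which had 19.8 ± 1.33 in DICER_KO and 20.8 ± 2.27 in controls (SD, n = 3 each). Acss3, Abat and Bdh1 were lowest.

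**Figure D4:**
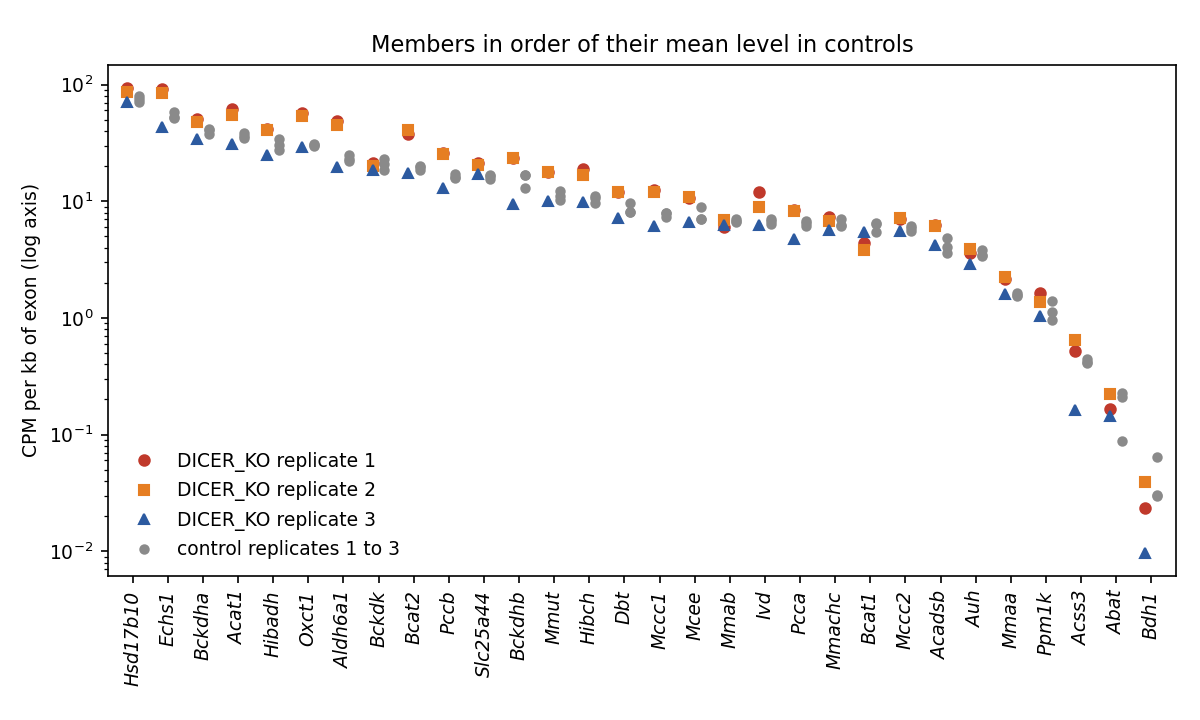
Level of each member in CPM per kilobase of exon on a log axis, by library, with members ordered by the control mean. Hsd17b10 and Echs1 lead, and Acss3, Abat and Bdh1 are lowest in both groups.

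Because DICER makes microRNAs, the 3′ UTRs of the members were searched for the 7-base matches to the seeds of 9 microRNA families. For let-7 and miR-29 the mature sequences are printed here from RefSeq (GRCm38.p6), with the seed (bases 2 to 8) in capitals, and under each the 22 bases around a match in members, with the match in capitals, from the longest 3′ UTR in GENCODE M21 (GRCm38). In human cells miR-29b is known to target the DBT mRNA, and the Bcat1 match belongs to the member that fell without replicate 3.
mmu-miR-29b-3p: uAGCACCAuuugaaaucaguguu
Dbt: cggggcttccattaTGGTGCTg
Oxct1: ggcatatgctctgcTGGTGCTg
mmu-let-7a-5p: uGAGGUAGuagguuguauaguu
Bcat1: ctgggtatgggaaaCTACCTCa
Acat1: ggtcctgtgcttttCTACCTCa
The Dbt match covers bases 230 to 236 of a UTR of 1781 bases, and the Bcat1 match bases 6223 to 6229 of 6428.

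Matches to miR-29 (TGGTGCT) were in 5 of 29 member UTRs (Dbt, Auh, Acadsb, Acss3 and Oxct1), and in 15.7% of 9503 tested UTRs. Matches to let-7 (CTACCTC) were in 4 (Bcat1, Bckdk, Acadsb and Acat1), and in 10.7% of tested UTRs. Of the miR-29 matched members, Dbt, Acadsb and Oxct1 rose without replicate 3, while Auh and Acss3 did not pass. Of the let-7 matched members, Acadsb and Acat1 rose, Bcat1 fell and Bckdk did not pass. In the same fit 65.5% of all 29 members rose and 3.45% fell, against 12.5% and 7.22% of all genes. Matches to miR-27 (ACTGTGA), miR-26 (TACTTGA), miR-103 (ATGCTGC) and miR-22 (GGCAGCT) were each in 5 members, against 17.7%, 11.4%, 13.1% and 15.6% of tested UTRs. Matches to miR-21 (ATAAGCT) were in 4, to miR-30 (TGTTTAC) in 3 and to miR-193 (GGCCAGT) in 1, against 8.25%, 16.6% and 11.4%. Mature microRNAs are not analysed here, and a match is not a measured site.

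Other genes of these and adjoining pathways were taken as 9 lists of 78 genes, of which 64 were tested. With all libraries 0 of 64 passed in limma or limma-voom, and 5 were at an unadjusted p under 0.05 in limma, against 15.8% of all genes. Without DICER_KO replicate 3 there were 29 higher and 1 lower, against 12.5% and 7.22% of all genes. Their median difference was 0.18 with all libraries and 0.33 without replicate 3. All 3 electron acceptors of the acyl-CoA dehydrogenases rose without replicate 3, among them Etfdh, the ubiquinone oxidoreductase, which rose by 0.68 (adjusted p = 0.000202) and differed by 0.39 (adjusted p = 0.369) with all libraries. Dld, the lipoamide dehydrogenase that completes the branched-chain complex and was named after its values were seen, had 8.30, 8.16 and 7.55 log2 CPM in the DICER_KO libraries, against 7.66, 7.31 and 7.82 in the controls, and rose by 0.64 (adjusted p = 0.00249) without replicate 3, against 0.41 (adjusted p = 0.326) with all libraries.

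Of 14 further enzymes of the pathway 9 rose without replicate 3, including Acadm, the medium-chain acyl-CoA dehydrogenase, by 0.87 (adjusted p = 2.44e-05), against 0.43 (adjusted p = 0.462) with all libraries. Of 6 genes of propionate and succinate exit 4 rose, including Suclg1, a succinyl-CoA synthetase subunit, by 0.53 (adjusted p = 0.00136), against 0.30 (adjusted p = 0.403). In limma without replicate 3, 0 of 5 ketone synthesis genes and 0 of 4 cobalamin uptake genes passed, against 19.7% of all genes. With all libraries 0 and 1 of them were at an unadjusted p under 0.05, against 15.8% of all genes. Of 8 cofactor genes 3 rose without replicate 3. For each of these lists the share of all genes that rose in that fit was 12.5%.

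Among 13 related dehydrogenase genes and kinases 5 rose without replicate 3, against 12.5% of all genes. Dlat, the pyruvate dehydrogenase counterpart of Dbt, had 7.93, 7.88 and 7.05 log2 CPM in the DICER_KO libraries, against 7.05, 6.75 and 7.07 in the controls. Pdk2, a pyruvate dehydrogenase kinase related to Bckdk, had 5.79, 5.81 and 4.14 log2 CPM in the DICER_KO libraries, against 4.84, 4.88 and 4.77 in the controls. They rose by 0.95 (adjusted p = 2.72e-05) and 0.97 (adjusted p = 1.42e-05) without replicate 3, and with all libraries differed by 0.66 (adjusted p = 0.193) and 0.42 (adjusted p = 0.541). Of 6 regulators 4 rose without replicate 3, against the same 12.5% of all genes. The regulators include Pparg, which is also among the mature adipocyte markers. Ppara, a nuclear receptor of fatty acid oxidation genes, had 5.61, 5.53 and 3.52 log2 CPM in the DICER_KO libraries, against 3.92, 4.04 and 3.82 in the controls. It rose by 1.65 (adjusted p = 2.09e-07) without replicate 3, against 0.96 (adjusted p = 0.317) with all libraries.

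At the plasma membrane, Slc7a5, the light chain of the LAT carrier that imports leucine, had 7.06, 6.90 and 7.20 log2 CPM in DICER_KO replicates 1, 2 and 3, against 7.55, 7.56 and 7.32 in control replicates 1, 2 and 3. All DICER_KO libraries lay below all controls, as for 9.81% of all genes. The difference was -0.42 ± 0.12 (SE; adjusted p = 0.147) with all libraries and missed the threshold, and Slc7a5 fell without replicate 3, with a difference of -0.50 ± 0.11 (SE; adjusted p = 0.00401). Slc43a2, another carrier of branched-chain amino acids, had 5.76, 5.22 and 4.83 log2 CPM in the DICER_KO libraries, against 4.94, 4.69 and 4.88 in the controls, and rose by 0.65 (adjusted p = 0.00461) without replicate 3, while with all libraries it differed by 0.44 (adjusted p = 0.317).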

How the data were processed

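Poly(A) libraries (NEBNext Ultra II, NovaSeq) were made from 3 DICER_KO and 3 control samples, per the labels. The authors deposited log2 CPM per gene, and the submitters' processing notes name edgeR, featureCounts, HISAT2, Trimmomatic and FastQC, without versions, and the build as GRCm38 or mm10. Strand use in counting is not stated. Each deposited log2 value equals log2 of (reads + 0.5) over the library size + 1, scaled to CPM, and 100% of them give whole reads within 0.01. Reads on genes were 71.5 to 77.1% of that size.

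Limma 3.58.1 (R 4.3.3) with an intensity trend was fitted to the log2 values, with group as the only term, for genes with at least 1 CPM in 3 libraries. Adjusted p-values are Benjamini-Hochberg over 10054 genes, threshold 0.05. Limma-voom on the recovered reads called 10 genes higher and 24 lower. Symbols came from RefSeq (GRCm38.p6; 13682 of 13734 IDs matched), and exon lengths and 3′ UTRs from GENCODE M21. Members and lists were chosen with earlier results of these data known. All listed members were named, with Dicer1 and, per neighbouring list, examples from the 3 genes with the smallest p without DICER_KO replicate 3, of which 1 gene is not reported here, and Dld outside that rule. Alternatives changed scaling, filter, pseudocount, test, replicate term, weights and libraries. Sequence searches, summaries and figures used pandas 2.3.3 and matplotlib 3.10.9 in Python 3.11.15.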

Additional observations from a re-analysis of the deposited data

How the results depend on the processing

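With all 6 libraries at equal weight, 0 members passed in any fit. Array weights called 21 members higher and 1 lower in DICER_KO (neighbouring genes 38 and 5, all genes 2542 and 1942); their estimation stopped before its convergence tolerance. Without DICER_KO replicate 3 and with median centring, chosen after seeing the data, 16 members were higher and 1 lower (neighbours 25 and 2, all genes 1037 and 1008). Over fits that leave out 1 library, members called ran from 0 to 19 higher and 0 to 1 lower, neighbours from 0 to 29 and 0 to 1, and all genes from 0 to 1257 and 1 to 726. The 19, 29 and 1257 come from leaving out DICER_KO replicate 3, and without control replicate 3 the calls over all genes were 0 higher and 1 lower, against 15 and 29 with all libraries. No trend gave 6 and 13 calls over all genes and robust moderation 23 and 47. Same-numbered libraries did not deviate together (correlations 0.195, -0.01 and -0.08), and with the replicate block all genes had 0 and 2 calls and members 0. The median member difference of 0.23 ran from 0.15 to 0.46.

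Dicer1 was -0.66 with no trend (adjusted p = 0.0635 in limma) and with the replicate block (0.119), and -0.68 to -0.64 when 1 library was left out. The sign held in every fit for 22 members. It turned in fits that leave out 1 library for Bckdhb (-0.047 to 0.61), Bckdk (-0.15 to 0.012), Auh (-0.13 to 0.076), Abat (-0.32 to 0.37), Pcca (-0.048 to 0.36), Acss3 (-0.55 to 0.45) and Mmachc (-0.060 to 0.12). It also turned with array weights for Auh (0.13), Abat (-0.12) and Acss3 (0.31), without replicate 3 and with centring for Auh (0.030) and Acss3 (0.40), and for Mmachc with limma-voom (-0.0073), median centring (-0.014) and quantile normalisation (-0.011). The cause was not tested. Leaving out members with over 10% of exon bases shared left 24 and 0 calls, and 15 higher and 1 lower without replicate 3. Few reads limit Abat, Acss3 and Bdh1.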
